A study of Mus musculus with 160 samples.

Results

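Tuft cells are rare chemosensory cells of the intestinal epithelium, and the 8 genes described here, *Dclk1*, *Trpm5*, *Pou2f3*, *Il25*, *Il17rb*, *Avil*, *Sh2d6* and *Alox5*, are commonly used to recognize them. The genes were chosen by name, as 8 of the 39179 genes counted in each library, and were followed through RNA-seq of the distal colon of 160 mice by knockout line and genotype and against the level of inflammation genes. The 4 lines carried homozygous knockouts (labelled HO) of *Nckap1l* (labelled HEM1; 16 knockout and 15 wild-type mice), *Dock2* (18 and 24), *Gpsm3* (20 and 20) and *Dok3* (26 and 21), and the controls were wild-type littermates from crosses of heterozygous parents. Strain was labelled C57BL6/J for the first 3 lines and 129 for the *Dok3* line, and the mice were young adults. The *Gpsm3* and *Dok3* mice were all labelled male, whereas both sexes were present in the *Nckap1l* line (12 females, 4 of them knockout) and the *Dock2* line (20 females, 8 of them knockout). Part of the mice drank dextran sodium sulfate (DSS), a detergent that injures the colonic epithelium, for 5 days. The labelled dose was 3% in the *Dock2* and *Gpsm3* lines and 3.5% in the *Dok3* line, with no dose labelled for *Nckap1l*. For *Nckap1l* mice the authors describe a slightly lower dose, and for *Dok3* mice 3% in a first round of experiments and 3.5% after it. Tissue was taken on day 10, or on day 12 in the *Nckap1l* line. Which mice received DSS is not in the labels, so each group mixes treated and untreated mice, and separate animals were the replicates.

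The role of each gene orders what follows. *Pou2f3* encodes the POU-domain transcription factor without which tuft cells are not made. *Trpm5* encodes a calcium-activated cation channel that closes the taste-like signaling cascade of these cells, with *Gnat3* (the taste G protein gustducin) upstream of it. *Sh2d6* encodes an SH2-domain adaptor and *Avil* an actin-bundling protein of the villin family, found in tuft cells and also in sensory neurons. *Il25* encodes the cytokine by which tuft cells alert type 2 innate lymphoid cells, and *Il17rb* a chain of its receptor. *Dclk1* encodes a microtubule-associated kinase, used as a tuft cell marker but also made by neurons and stromal cells, and *Alox5* encodes 5-lipoxygenase, which starts leukotriene synthesis and is abundant in myeloid leukocytes. Bulk tissue cannot separate a loss of tuft cells from less RNA per tuft cell.

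In the annotation of GRCm38, *Trpm5* lies at chr7:143069153-143094642 and *Sh2d6* at chr6:72513641-72521707, *Pou2f3* at chr9:43123939-43210369, *Il17rb* at chr14:29996135-30008896 and *Il25* at chr14:54932695-54935837, *Avil* at chr10:127000709-127020994, *Dclk1* at chr3:55242364-55539068 and *Alox5* at chr6:116410077-116461178, all protein-coding. Exons of 4 members share bases with a gene on the opposite strand that was also counted: *Trpm5* with *Tssc4* (at most 598 bases), *Avil* with *Tsfm* (at most 165), *Il17rb* with *Actr8* (at most 141) and *Dclk1* with *Gm21954* (at most 27). These are upper limits, because a base in more than 1 annotated exon of the partner gene was added each time. The strand setting of the counting is not given in the sources used here, so reads from such a pair cannot be told apart there. Start-site sequences from RefSeq (GRCm38.p6) were found for 6 of the 8 members, with 7 start sites. The 250 bases before the start are shown for *Trpm5* (chr7:143094643-143094892, minus strand) and *Sh2d6* (chr6:72520037-72520286, minus strand), the pair whose levels ran closest together across the libraries, and for *Avil* (chr10:127000459-127000708, plus strand), the member with the motif described next. Each is written 5′ to 3′ in the direction of the gene, with capitals for the motif ATGCAAA or its reverse complement TTTGCAT.
*Trpm5*: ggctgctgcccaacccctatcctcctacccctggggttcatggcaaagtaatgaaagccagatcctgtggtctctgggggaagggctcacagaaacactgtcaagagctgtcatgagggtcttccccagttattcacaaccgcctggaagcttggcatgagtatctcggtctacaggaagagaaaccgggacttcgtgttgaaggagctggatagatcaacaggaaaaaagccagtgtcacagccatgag
*Sh2d6*: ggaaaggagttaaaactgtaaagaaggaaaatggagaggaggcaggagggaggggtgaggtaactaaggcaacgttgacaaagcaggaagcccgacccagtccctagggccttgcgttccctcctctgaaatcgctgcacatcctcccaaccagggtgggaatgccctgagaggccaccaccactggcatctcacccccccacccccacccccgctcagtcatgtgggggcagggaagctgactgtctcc
*Avil*: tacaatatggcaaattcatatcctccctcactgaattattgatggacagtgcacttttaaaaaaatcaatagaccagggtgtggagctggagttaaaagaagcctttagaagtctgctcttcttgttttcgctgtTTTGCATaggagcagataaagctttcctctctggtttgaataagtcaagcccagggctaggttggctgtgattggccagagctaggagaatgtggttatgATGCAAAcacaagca
The octamer bound by POU-domain factors, ATGCAAAT or ATTTGCAT, occurred in 0 of the 7 member windows, each running from 250 bases before to 50 bases after a start, and in 1.74% of the 32851 windows of all genes. Its first 7 letters, which the octamer contains, occurred in 1 of 7 member windows, that of *Avil*, on each strand, and in 4.63% of all windows. A match is a description of these letters and says nothing of binding.

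Libraries held from 4344988 to 19993833 counts on genes (median 15989625), so that 3 counts correspond to between 0.15 and 0.69 CPM, the unit used here for counts scaled to a common library size. The targeted gene was lower in the median knockout of every line but did not separate the genotypes. Median CPM in wild type and in mice labelled knockout was 27.2 and 14.8 for *Nckap1l*, 34.2 and 22.5 for *Dock2*, 3.21 and 0.572 for *Gpsm3* and 3.63 and 3.16 for *Dok3*, and the ranges overlapped each time. In the *Gpsm3* line 2 libraries labelled knockout and 1 labelled wild type stood on the other genotype's side of 1.5 CPM. Epidermal keratins and other skin markers summed to between 818 and 13508 CPM in 32 libraries (15 *Nckap1l*, 5 *Dock2*, 3 *Gpsm3*, 9 *Dok3*) and to at most 59.3 CPM in the other 128. The sex markers of 5 *Dok3* libraries differed from their label. Epithelial markers were abundant in every library, at a summed 2718 to 15976 CPM.

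*Levels of the tuft cell genes.* Per kilobase of exon, the order of the median levels over 160 libraries was *Dclk1* (2.20 CPM per kilobase), *Avil* (1.58), *Il17rb* (1.51), *Alox5* (1.27), *Sh2d6* (0.986), *Trpm5* (0.528), *Pou2f3* (0.277) and *Il25* (0). From *Avil* to *Alox5* the neighbours in this order had widely overlapping ranges. *Trpm5*, the channel, ranged from 0.369 to 17.3 CPM and *Sh2d6* from 0.125 to 8.77 CPM, each over more than a factor of 10, whereas *Il17rb* stayed between 2.59 and 9.69 CPM and *Avil* between 2.18 and 12.1 CPM. *Dclk1*, at 19.95 to 95.98 CPM, was read from a median of 526 counts a library and is the best measured of the 8. *Il25* was at the limit of detection: 95 libraries had 0 counts, 52 had 1, and none had more than 4. It did not pass the filter on low counts, so 7 of the 8 members entered the edgeR fits with that filter, and *Il25* entered only correlations.

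**Figure D1:**
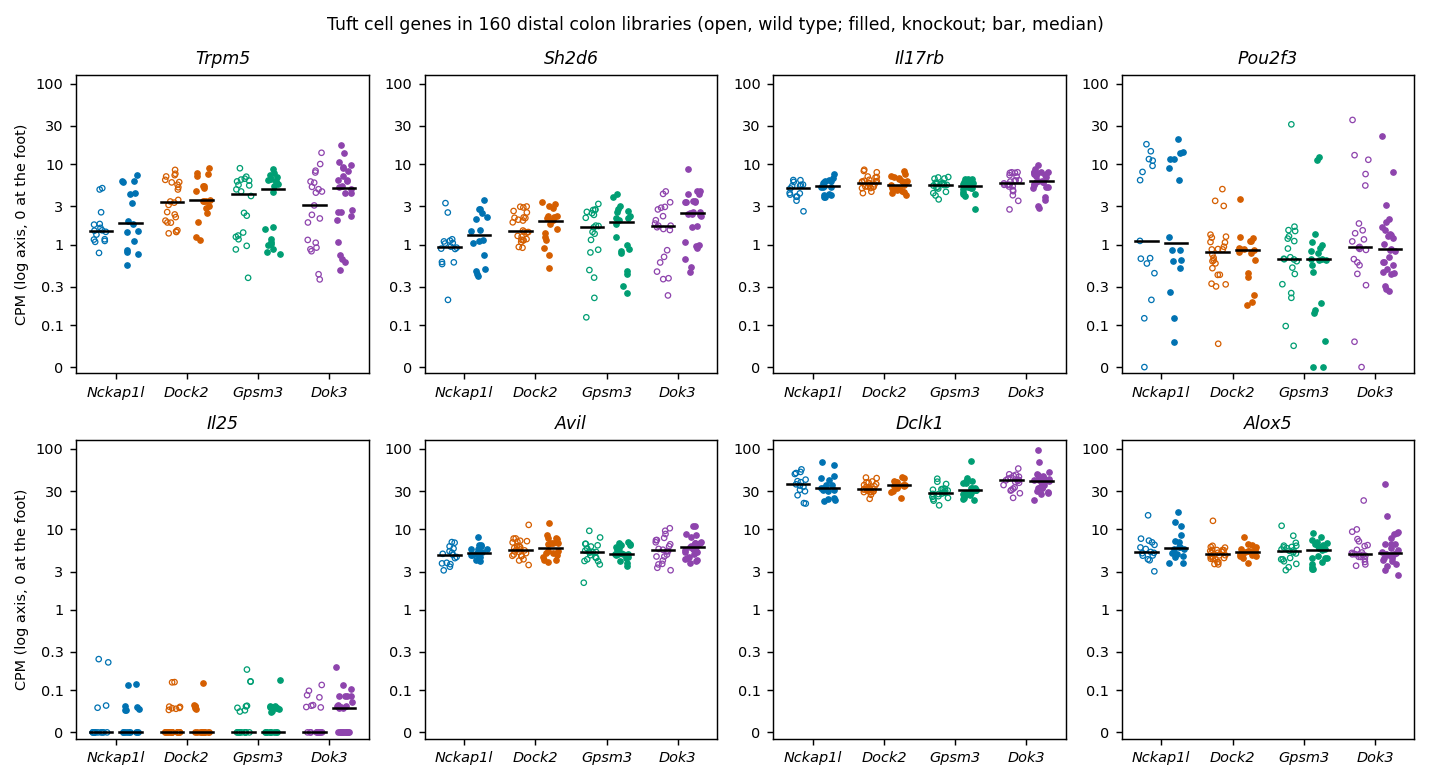
CPM of the 8 tuft cell genes on a log axis (values of 0 drawn at the foot), 1 point per library, by line, with wild type open, knockout filled and a bar at the median. *Trpm5*, *Sh2d6* and *Pou2f3* spread widely within every group, while *Il17rb*, *Avil* and *Dclk1* do not, and wild type and knockout overlap for every gene.

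*Knockout against wild type.* No tuft cell gene was called between genotypes in any line. In *Nckap1l*, *Trpm5* ran from 0.788 to 5.03 CPM (median 1.49) in 15 wild-type mice and from 0.559 to 7.29 CPM (median 1.88) in 16 knockouts, and *Sh2d6* from 0.206 to 3.28 CPM (median 0.943) against 0.403 to 3.62 CPM (median 1.32). In *Dock2*, *Trpm5* had a median of 3.38 CPM in 24 wild-type mice (1.38 to 8.48) and 3.53 CPM in 18 knockouts (1.15 to 8.86). In *Gpsm3* the medians were 4.30 CPM (0.387 to 8.89) and 4.91 CPM (0.770 to 8.78), and in *Dok3* 3.07 CPM (0.369 to 13.9) and 5.04 CPM (0.483 to 17.3). Medians of *Trpm5* were thus higher in knockouts in each line, and lay well inside the range of either genotype. With edgeR's quasi-likelihood test the log2 difference of *Trpm5* (knockout minus wild type) was 0.70 ± 0.38 (SE) in *Nckap1l*, 0.17 ± 0.23 in *Dock2*, 0.06 ± 0.36 in *Gpsm3* and 0.43 ± 0.38 in *Dok3*, and that of *Sh2d6* was 0.52 ± 0.34, 0.16 ± 0.18, 0.11 ± 0.32 and 0.53 ± 0.30 in the same order. Across the genome the share of genes called at an adjusted p of 0.05 was 0% in *Nckap1l*, 0.034% in *Dock2*, 0.00569% in *Gpsm3* and 0% in *Dok3*, against 0 of 7 members each time, and DESeq2 and limma-voom called 0 members as well. At an unadjusted p under 0.05, 807, 900, 854 and 386 genes passed in the same order of lines. The lowest adjusted p among the 28 member tests was 0.936, and 1 of them had an unadjusted p under 0.05. That was *Dclk1* in *Dock2*, at 31.7 CPM (24.04 to 44.2) in wild type and 35.5 CPM (24.8 to 44.9) in knockouts, a log2 difference of 0.12 ± 0.056 (SE; adjusted p = 0.956, edgeR). A difference of the genotype effect between lines was called for 0 of 7 members, against 0.69% of 19849 genes. Without the 3 *Gpsm3* libraries that stood on the other side of 1.5 CPM, no member was called either.

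*Trpm5, Sh2d6 and Il17rb fell as inflammation genes rose.* Inflammation was read in each library as a score, the mean log2 CPM of 20 genes of neutrophils, acute cytokines and matrix proteases (*S100a8*, *S100a9*, *Il1b*, *Cxcl2*, *Lcn2*, *Mmp10* and others, no tuft cell gene among them), so that 1 unit is a doubling of their average level. The score ran from -1.28 to 8.32 over the 160 libraries with no gap that would split a line into clusters. *Trpm5* was lower in the libraries of higher score in all 4 lines, *Sh2d6* followed it, and *Il17rb* fell less steeply. In the 3 *Dock2* libraries of lowest score *Trpm5* was at 5.30, 7.59 and 4.62 CPM, and in the 3 of highest score at 1.15, 1.24 and 1.51 CPM. In *Gpsm3* the 3 lowest gave 4.58, 6.27 and 5.99 CPM and the 3 highest 0.770, 1.17 and 0.978 CPM. The ends of the score did not overlap in either line, and the *Nckap1l* line went from 5.03, 7.29 and 6.26 CPM to 0.559, 0.788 and 1.49 CPM. *Dok3* covered the widest span, from 9.72, 13.7 and 5.18 CPM to 0.483, 0.827 and 0.608 CPM.

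With genotype, and sex where both were present, in the model, the slope of *Trpm5* per unit of score was -0.33 ± 0.059 (log2, SE) in *Nckap1l*, -0.41 ± 0.052 in *Dock2*, -0.45 ± 0.068 in *Gpsm3* and -0.32 ± 0.068 in *Dok3*, with adjusted p of 4.17e-05, 1.06e-08, 5.04e-07 and 8.19e-05 (edgeR). Only 0.908%, 0.351%, 0.393% and 1.08% of the genes tested in those lines had a lower slope. Between the 10th and the 90th percentile of the score, that is a fall by a factor of 3.37, 2.76, 5.07 and 3.62. The slopes of *Sh2d6*, the adaptor, were -0.24 ± 0.061, -0.27 ± 0.045, -0.37 ± 0.063 and -0.22 ± 0.056 in the same order of lines, all past the threshold (adjusted p of 0.00162, 3.18e-06, 5.23e-06 and 0.000713). *Il17rb*, the receptor chain, changed by -0.11 ± 0.018, -0.075 ± 0.022, -0.092 ± 0.016 and -0.13 ± 0.017 per unit, all past the threshold as well (adjusted p of 1.61e-05, 0.00434, 7.92e-06 and 2.14e-08), which over the same span is a factor of 1.20 to 1.67. The 3 genes are 3 of 7 tested members in each line, where 24.4% (*Nckap1l*), 26.9% (*Dock2*), 26.1% (*Gpsm3*) and 30.4% (*Dok3*) of all genes were called lower with the score. A call along the score was therefore common, and a slope as low as that of *Trpm5* was not.

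Of the skin markers tested, 0 of 7 were called higher with the score in *Nckap1l*, 5 of 5 in *Dock2*, 2 of 2 in *Gpsm3* and 5 of 5 in *Dok3*. The shares of all genes called higher were 22.9%, 28.3%, 27.8% and 32.5% in the same order. Without the 32 libraries over 500 CPM of skin markers the slope of *Trpm5* was -0.32 ± 0.067, -0.41 ± 0.049, -0.46 ± 0.063 and -0.24 ± 0.070 in the same order, still called in each line.

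**Figure D2:**
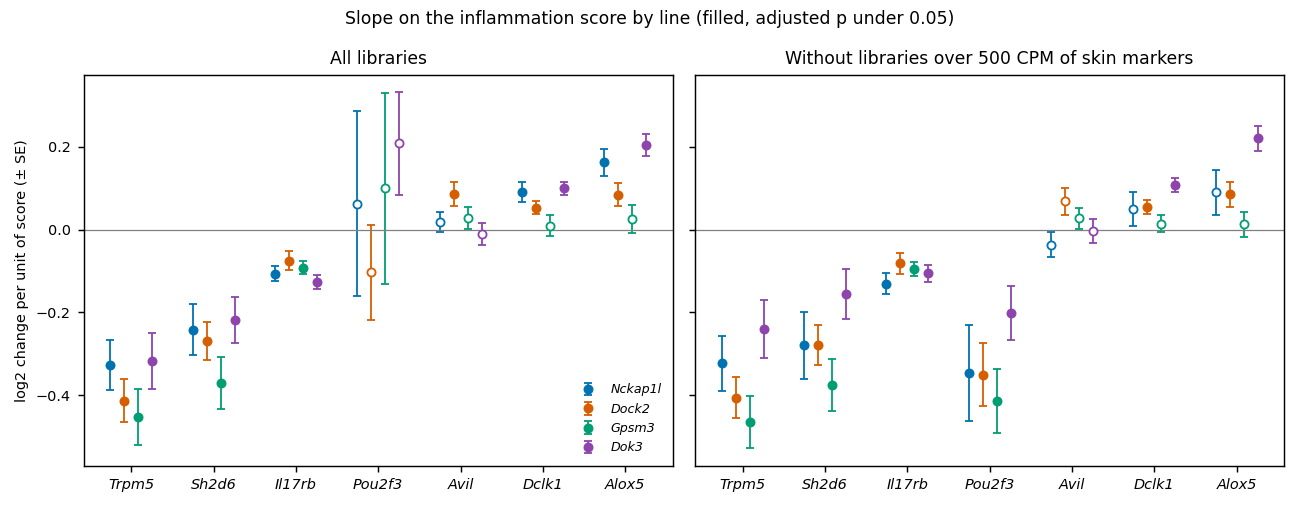
Change of 7 tuft cell genes per unit of the inflammation score (log2, ± SE) by line, filled where the adjusted p was under 0.05, for all libraries on the left and without the 32 libraries over 500 CPM of skin markers on the right. *Trpm5*, *Sh2d6* and *Il17rb* are below 0 in every line in both panels, and *Pou2f3* is below 0 in every line on the right only.

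Over 51 alternative fits in the 4 lines *Trpm5*, *Sh2d6* and *Il17rb* each kept a slope below 0 in 51, and each was called lower in 45. Calls were lost where the inflammation genes were replaced by another list. With a score of interferon-response genes the slope of *Trpm5* was -0.22 ± 0.16, -0.50 ± 0.18, -0.39 ± 0.17 and -0.28 ± 0.20 (log2, SE) in *Nckap1l*, *Dock2*, *Gpsm3* and *Dok3*, with none past the threshold (adjusted p of 0.33, 0.0609, 0.0808 and 0.253, edgeR). With a score of acute-phase genes of the epithelium it was called in *Dock2* and *Gpsm3* only. Of 12 epithelial markers 7 were called lower and 0 higher with the score in *Nckap1l*, 0 and 4 in *Dock2*, 1 and 1 in *Gpsm3* and 8 and 0 in *Dok3*. The shares of all genes called lower and higher are those given above. With the epithelial score as a covariate the slope of *Trpm5* stayed at -0.27, -0.45, -0.46 and -0.23 in the same order of lines, called in each. With the run of sample numbers as a covariate it was -0.30 in *Nckap1l*, -0.45 in *Gpsm3* and -0.31 in *Dok3*, again called. Within those runs (7 runs of 8 to 30 libraries in the 3 lines, *Dock2* being 1 run of 42), the Pearson correlation of log2 *Trpm5* with the score was between -0.591 and -0.838.

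**Figure D3:**
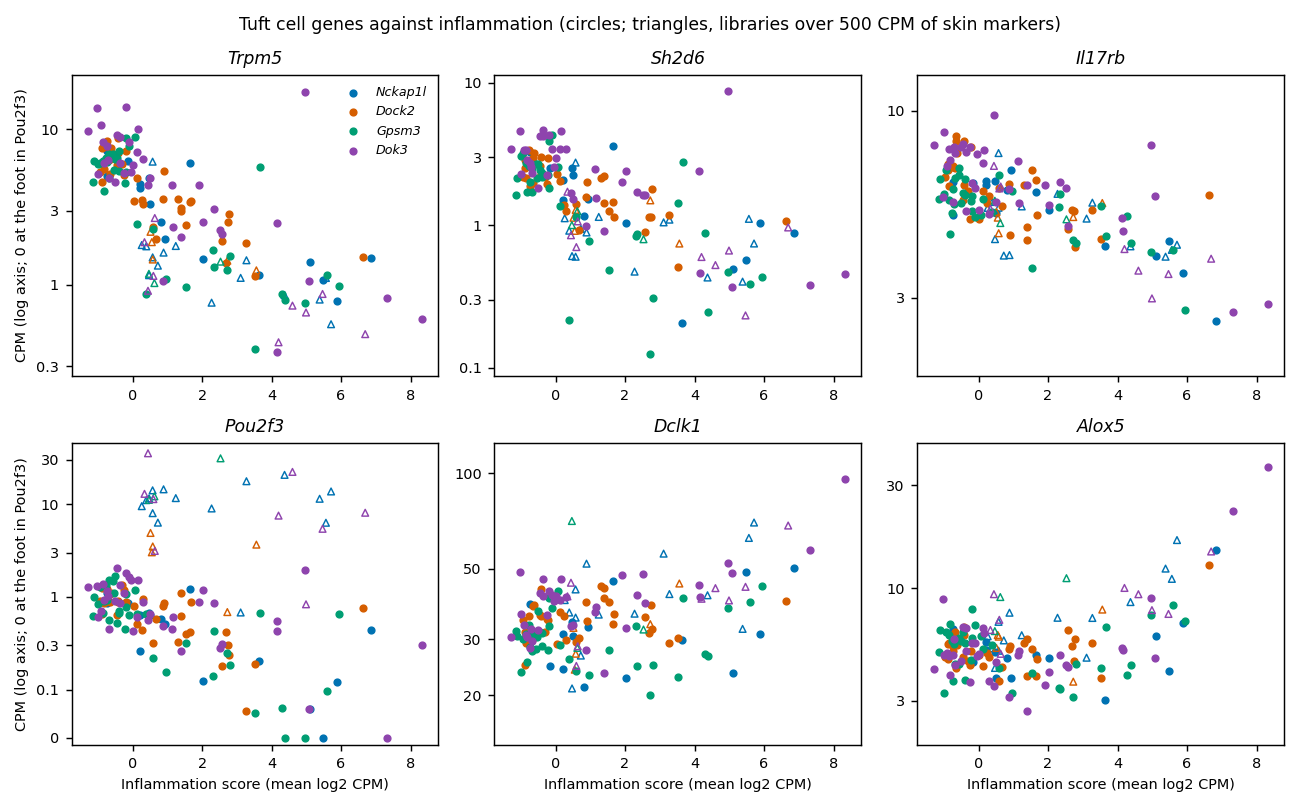
CPM (log axis) of 6 tuft cell genes against the inflammation score of each library, coloured by line, with triangles for the 32 libraries over 500 CPM of skin markers. *Trpm5*, *Sh2d6* and *Il17rb* fall from left to right, *Pou2f3* falls among the circles while most triangles lie above them, and *Alox5* rises in the libraries of highest score.

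A few libraries stood off this trend. A *Gpsm3* knockout with a score of 3.66 had 5.72 CPM of *Trpm5* and 2.79 CPM of *Sh2d6*, as in the libraries of low score. A *Dok3* knockout with a score of 4.95 held the highest *Trpm5* (17.3 CPM) and *Sh2d6* (8.77 CPM) of all 160 libraries, where the next *Dok3* library was at 13.9 CPM of *Trpm5*. *Avil* was at 11.0 CPM, *Dclk1* at 52.3 CPM, *Il17rb* at 7.99 CPM and *Pou2f3* at 1.93 CPM in the same mouse, each above the median of the *Dok3* knockouts. Without it, the *Dok3* slopes were steeper, at -0.49 ± 0.051 for *Trpm5* and -0.34 ± 0.043 for *Sh2d6* (log2 per unit, SE).

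*Pou2f3 and skin markers.* The level of *Pou2f3*, which keratinocytes of skin also express, was split by the skin markers. It was at 0.678 to 35.4 CPM (median 10.3) in the 32 libraries over 500 CPM of skin markers and at 0 to 2.07 CPM (median 0.661) in the other 128. The ranges overlapped from 0.678 to 2.07 CPM. *Trpm5* was at 0.428 to 6.21 CPM (median 1.21) in the first and 0.369 to 17.3 CPM (median 4.60) in the second, so the libraries with the most *Pou2f3* were not those with the most *Trpm5*. Over all libraries the slope of *Pou2f3* on the inflammation score was 0.062 ± 0.22, -0.10 ± 0.12, 0.10 ± 0.23 and 0.21 ± 0.12 in *Nckap1l*, *Dock2*, *Gpsm3* and *Dok3*, with no call.

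**Figure D4:**
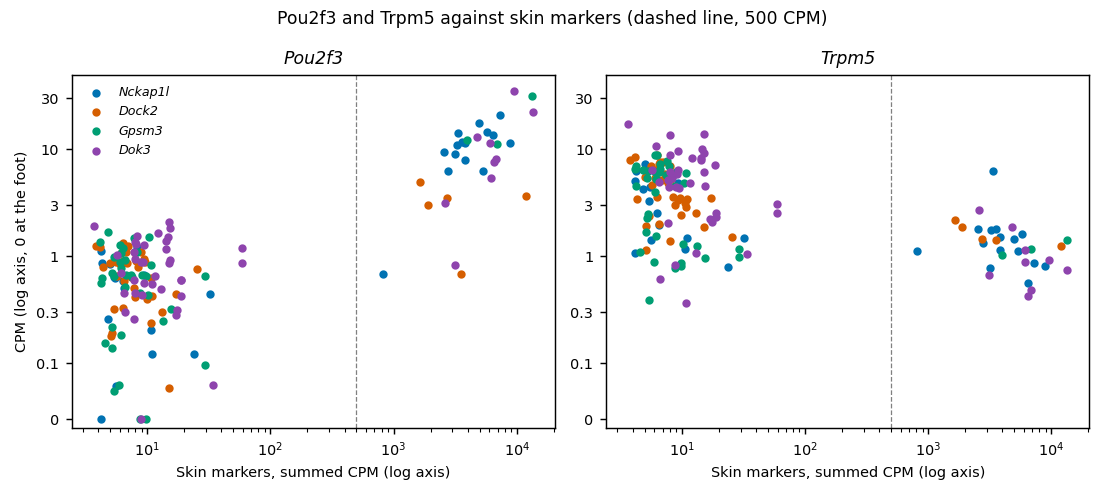
CPM of *Pou2f3* and of *Trpm5* (log axis, 0 at the foot) against the summed CPM of skin markers (log axis) in each library, coloured by line, with a dashed line at 500 CPM. *Pou2f3* is at a median of 10.3 CPM to the right of the line and 0.661 CPM to the left, and *Trpm5* is at 1.21 CPM and 4.60 CPM.

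Leaving out those 32 libraries, a choice made after the split was seen, *Pou2f3* fell with the score in all 4 lines. Its slope was then -0.35 ± 0.12 in *Nckap1l* (16 libraries), -0.35 ± 0.077 in *Dock2* (37), -0.42 ± 0.078 in *Gpsm3* (37) and -0.20 ± 0.066 in *Dok3* (38; log2 per unit, SE), with adjusted p of 0.0268, 0.000212, 2.5e-05 and 0.00897 (edgeR). *Trpm5*, *Sh2d6* and *Il17rb* were called lower in all 4 lines in that subset too, so 4 of 7 members fell in each, where 19.8% (*Nckap1l*), 27.6% (*Dock2*), 29.4% (*Gpsm3*) and 27% (*Dok3*) of all genes were called lower in the same fits. These are low levels: 10 counts is the median of *Pou2f3* in the 128 libraries, and 4 of them had none.

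*Dclk1, Alox5 and Avil did not fall.* *Dclk1* rose slightly with the score in 3 lines, by 0.091 ± 0.024 in *Nckap1l*, 0.053 ± 0.016 in *Dock2* and 0.10 ± 0.015 in *Dok3* (adjusted p of 0.00284, 0.00393 and 2.67e-07, edgeR), and was at 0.0096 ± 0.026 in *Gpsm3*. Of 8 enteric neuron markers 2, 1, 1 and 2 were called higher and 0, 0, 1 and 0 lower in *Nckap1l*, *Dock2*, *Gpsm3* and *Dok3*, against 22.9%, 28.3%, 27.8% and 32.5% of all genes called higher. With their score as a covariate the slope of *Dclk1* was 0.078, 0.057, 0.0066 and 0.088 in that order. In *Dok3* it was at 30.4, 48.7 and 36.0 CPM in the 3 libraries of lowest score and 68.4, 57.1 and 95.98 CPM in the 3 of highest. *Alox5* rose in the same 3 lines, by 0.16 ± 0.033, 0.084 ± 0.027 and 0.21 ± 0.027 (adjusted p of 0.00017, 0.00853 and 6.74e-09, edgeR), with 0.026 ± 0.034 in *Gpsm3* (adjusted p = 0.536). It went from 4.22, 8.88 and 4.91 CPM at the low end of *Dok3* to 14.8, 22.9 and 36.4 CPM at the high end. All 7 macrophage markers rose with the score in every line beside it, and their part in the slope of *Alox5* was not tested. Without the 2 libraries farthest from the median score the slope of *Alox5* was 0.12 in *Nckap1l* and 0.11 in *Dok3*, both still called, and -0.042 in *Dock2*, where that of *Dclk1* was no longer called either (0.041, adjusted p = 0.0983). In *Nckap1l* neither gene was called once the skin-marker libraries were left out. *Avil* was called only in *Dock2*, at 0.087 ± 0.029 (adjusted p = 0.0111, edgeR), where it became -0.028 without the same 2 libraries. Calls in the direction of a rise were made for 22.9% of all genes in *Nckap1l*, 28.3% in *Dock2*, 27.8% in *Gpsm3* and 32.5% in *Dok3*, against 2, 3, 0 and 2 of 7 members. Of the 7 slopes, only that of *Alox5* differed between lines (adjusted p = 0.0118, edgeR, 7.4% of genes called), with *Gpsm3* lowest and *Dok3* highest, and without the 2 libraries farthest from each line's median that difference was not called (adjusted p = 0.0661).

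*How the genes moved together.* *Trpm5* and *Sh2d6* were the closest pair. Their log2 CPM had a Pearson r of 0.863 in *Nckap1l* (n = 31), 0.873 in *Dock2* (n = 42), 0.842 in *Gpsm3* (n = 40) and 0.926 in *Dok3* (n = 47), with a Spearman rho of 0.845, 0.853, 0.857 and 0.94. Each had a permutation p of 1e-05, the smallest that 100000 resamples can give, and 6.76e-05 after adjustment over 196 relations. Without the 2 libraries farthest in *Trpm5*, r was 0.843, 0.849, 0.895 and 0.92. *Trpm5* with *Il17rb* had r of 0.643, 0.638, 0.531 and 0.705 and rho of 0.684, 0.65, 0.528 and 0.636 (permutation p of at most 0.00056, adjusted 0.00261), and r of 0.667, 0.624, 0.545 and 0.693 without the 2 farthest. Within the runs of sample numbers, on log2(CPM + 0.1), r was 0.767 to 0.935 for *Trpm5* with *Sh2d6* and 0.429 to 0.768 for *Trpm5* with *Il17rb*. All libraries were made from the same kind of tissue, and each of these genes also fell with the inflammation score. In residuals after line, genotype, sex and the inflammation and epithelial scores (n = 160), *Trpm5* and *Sh2d6* kept r = 0.75 (rho 0.727, r = 0.708 without the 2 farthest, permutation p = 1e-05, adjusted 6.76e-05), while *Trpm5* and *Il17rb* were left with r = 0.132 (rho 0.0629, permutation p = 0.096 and 0.431, adjusted 0.202 and 0.565).

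*Dclk1* and *Alox5*, which moved against or apart from *Trpm5* in the raw values, moved with it in those residuals. The r of *Dclk1* with *Trpm5* was -0.0909 over 160 libraries centred on line and genotype (rho 0.00407, permutation p = 0.254 and 0.96) and 0.512 in the residuals (rho 0.541, permutation p = 1e-05, adjusted 6.76e-05, and r = 0.568 without the 2 libraries farthest in *Dclk1*). For *Alox5* with *Trpm5* it was -0.253 (rho -0.101, permutation p = 0.00123 and 0.205) and 0.52 (rho 0.519, the same p, and r = 0.488 without the 2 farthest). *Avil* with *Trpm5* went from 0.295 (rho 0.333, permutation p = 0.0002 and 1e-05) to 0.399 (rho 0.399, permutation p = 1e-05). In those residuals, then, libraries with more *Trpm5* also had more *Sh2d6*, *Dclk1* and *Alox5*. The residuals removed a straight slope on each score, common to all lines. Slopes that differ between lines, and any curve along a score, remain in them. The part of these in the r was not tested.

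**Figure D5:**
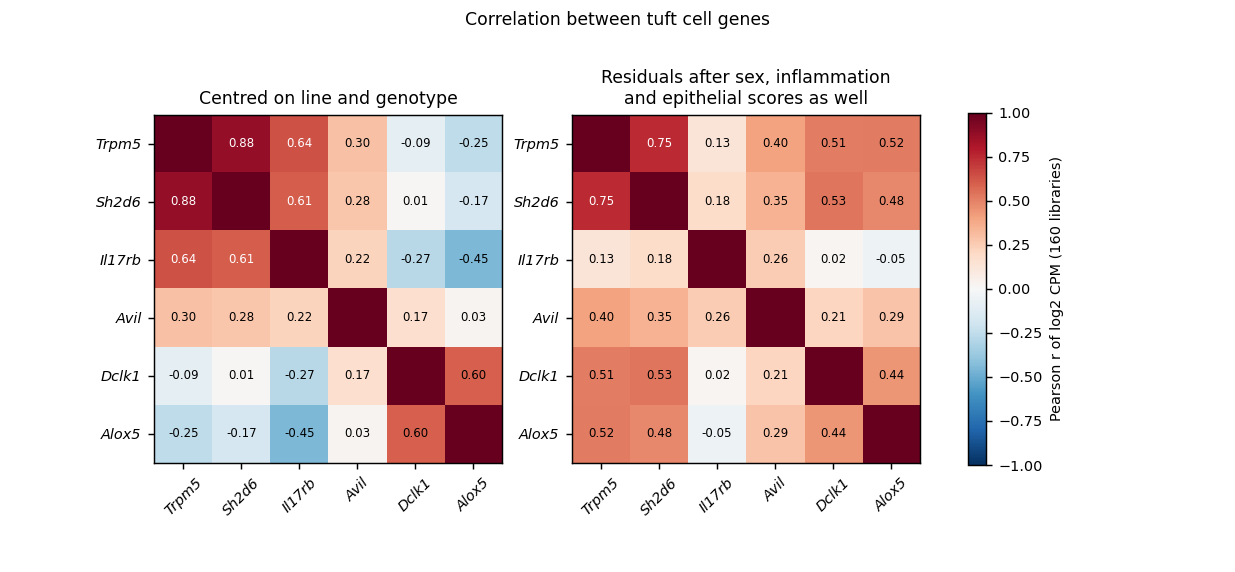
Pearson r between the log2 CPM of 6 tuft cell genes over 160 libraries, centred on line and genotype on the left and in residuals that also remove sex, inflammation and epithelial scores on the right. *Trpm5* and *Sh2d6* stand at 0.88 and 0.75, and *Dclk1* and *Alox5* go from -0.09 and -0.25 with *Trpm5* to 0.51 and 0.52.

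The 5 genes nearest to *Trpm5* by r among 19851 genes over the 160 libraries, centred on line and genotype, were *Dnah5* (0.928), *Sh2d7* (0.92), *Rgs13* (0.903), *Sh2d6* (0.879) and *Gnat3* (0.864), and *Sh2d6* had the same neighbours with *Trpm5* in second place. The libraries fell into 2 sets by skin markers, and *Pou2f3* with them, so genes near it are given as a description of the skin-marker libraries: *Zfyve9*, *Sec14l4*, *Bbox1* and *3425401B19Rik* (0.88 to 0.889). In the 128 libraries without high skin markers, centred likewise, the nearest of 19040 genes to *Pou2f3* were *Sh2d7* (0.803), *Trpm5* (0.783), *Dnah5* (0.78), *Rgs13* (0.77) and *Dpyd* (0.765), and its r with *Sh2d6* was 0.732 (rho 0.76, permutation p = 1e-05). *Il17rb* was nearest to *BC024139*, *Cyp2d26*, *Zfp799*, *Firre* and *Thumpd3* (0.747 to 0.763), *Dclk1* to *Cep170*, *Gpm6b*, *4930402H24Rik*, *Arap3* and *Dnm3os* (0.648 to 0.678), and *Alox5* to *F13a1* (a macrophage and platelet transglutaminase, 0.815), *Pygl*, *Grina*, *Dmxl2* and *Il1rap*. Among all 19851 genes, *Trpm5* took place 11866 from the top in likeness to *Dclk1*, and *Il17rb* took place 912 in likeness to *Trpm5*. *Avil* (highest r 0.397, with *9130230L23Rik*, then *Tph1*, *Kdm5c*, *Tfpi2* and *Chid1*) and *Il25* (0.369, with *Slc16a11*, then *Slc16a13*, *Pou2f3*, *Grip1os3* and ENSMUSG00000087349) had no close neighbour, *Il25* at its counts of 0 to 4.

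*Other tuft cell and type 2 genes.* Of 32 further genes ascribed to tuft cells, 14 are also used by leukocytes, and the counts are given apart for these, with no test between them. Of the 14 shared genes 9 of 13 tested rose and 1 fell in *Nckap1l*, with 10 and 2 of 14 in *Dock2*, 7 and 2 of 14 in *Gpsm3* and 9 and 2 of 14 in *Dok3*. Of the 18 others 3 of 10 tested rose and 1 fell in *Nckap1l*, with 4 and 4 of 12 in *Dock2*, 2 and 2 of 11 in *Gpsm3* and 4 and 4 of 12 in *Dok3*. Of all genes 22.9% to 32.5% were called higher over the lines and 24.4% to 30.4% lower, so the counts of rises among the 18 others lie near the background. Among the genes with the smallest p over the lines were *Alox5ap*, the partner protein of 5-lipoxygenase (0.40 to 0.55 per unit over the lines), *Fyb* (0.26 to 0.34) and *Inpp5d* (0.21 to 0.32). Of the genes of this list nearest to *Trpm5*, whose direction along the score follows from that choice, *Sh2d7* had slopes of -0.58 ± 0.069 in *Dock2*, -0.63 ± 0.098 in *Gpsm3* and -0.29 ± 0.079 in *Dok3*, *Rgs13* of -0.63, -0.64 and -0.29 in the same lines, and *Gnat3* of -0.49 ± 0.08 in *Dock2* and -0.32 ± 0.077 in *Dok3* (log2 per unit, SE). Slopes of these genes in *Nckap1l*, and of *Gnat3* in *Gpsm3*, are not given here. Over the genes of this list that were tested, the median slope was 0.135 in *Nckap1l* (23 of 32), 0.058 in *Dock2* (26), 0.022 in *Gpsm3* (25) and 0.066 in *Dok3* (26). In the same order it was 0.249, 0.12, 0.112 and 0.13 over the genes shared with leukocytes. Over the others it was 0.043, 0.016, 0.012 and -0.0078, and over all genes 0 to within 0.001.

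In the type 2 circuit around tuft cells (15 genes, 12 tested), 8 rose and 1 fell with the score in *Nckap1l*, 8 and 1 in *Dock2*, 7 and 2 in *Gpsm3* and 10 and 1 in *Dok3*, against 22.9% to 32.5% of all genes higher and 24.4% to 30.4% lower. *Il33*, the epithelial and stromal alarmin, rose by 0.37 to 0.59 per unit, its receptor *Il1rl1* by 0.65 to 0.77, *Il4ra*, a chain of the IL-4 and IL-13 receptors, by 0.40 to 0.43 and *Il17ra*, the chain that pairs with the product of *Il17rb*, by 0.12 to 0.19, each past the threshold in all 4 lines (edgeR). These 4 were named because they had the smallest mean rank of p in the list over the lines. In bulk tissue the RNA of the IL-25 receptor chains thus moved in opposite directions along the score, *Il17ra* up and *Il17rb* down. Which cells this RNA came from was not tested. No gene of either list was called between genotypes in any line.

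*Sex and line.* In the *Dock2* line *Dclk1* was higher in females by 0.20 ± 0.055 (log2, SE; adjusted p = 0.0152, edgeR) and *Avil* by 0.38 ± 0.11 (adjusted p = 0.0203), 2 of 7 members where 9.75% of all genes were called. *Trpm5* was 0.63 ± 0.23 higher in *Dock2* females without passing the threshold (adjusted p = 0.0748), and passed it without the skin-marker libraries (0.65, adjusted p = 0.0362). The inflammation score tended to be lower in females of this line (-0.954 to 3.561) than in males (-0.885 to 6.643). It was not a term in the comparison of the sexes, and its part in these differences was not tested. In *Nckap1l* no member was called (0.178% of genes), with *Dclk1* at 0.58 ± 0.14 and an adjusted p of 0.0851 (edgeR). The sexes were spread unevenly over the sample-number runs of that line. There 2823 genes had an unadjusted p under 0.05 for sex. With run as a covariate it was 1396, and without the skin-marker libraries 1170. Among wild-type mice, 4 of 7 members differed between the lines (*Dclk1*, *Trpm5*, *Il17rb* and *Pou2f3*, adjusted p of 0.00011, 0.02895, 0.0129 and 0.0152, edgeR), where 41.8% of all genes did. *Trpm5* was lower in *Nckap1l* than in *Dock2* by 1.02 ± 0.36, than in *Gpsm3* by 1.24 ± 0.41 and than in *Dok3* by 1.33 ± 0.41 (log2, SE), and no pair among the other 3 lines was called. *Il17rb* was lower in *Nckap1l* than in *Dock2* by 0.32 ± 0.099 and than in *Dok3* by 0.41 ± 0.11. *Dclk1* was higher in *Dok3* than in *Dock2* by 0.43 ± 0.095 and than in *Gpsm3* by 0.44 ± 0.088. *Pou2f3* was 2.31 ± 0.70 higher in *Nckap1l* than in *Dock2*, and the median skin-marker sum of wild-type mice was 817.7 CPM in *Nckap1l* and 7.87 CPM in *Dock2*. Without the skin-marker libraries 22.4% of all genes were called between the lines, and of the members *Dclk1* kept its call (adjusted p = 0.001, edgeR) while *Trpm5* (adjusted p = 0.218), *Il17rb* (0.106) and *Pou2f3* (0.485) lost theirs. The pairs of lines were not fitted without those libraries. Line, strain, dose, day of collection and sample-number run cannot be told apart here.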

How the data were processed

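RNA of the distal colon had been prepared with a ribosomal-depletion kit and sequenced by the authors, who aligned with STAR (mm10) and used featureCounts for gene counts. The files they deposited hold raw counts of 39179 Ensembl genes in each of 160 samples, with no normalization. Tool versions are not given in the sources used here. GENCODE M21 (GRCm38) named 37693 genes, which hold 99.67% of counts.

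Each line was tested on its counts by edgeR's quasi-likelihood F test (version 4.0.16, R 4.3.3; TMM, filterByExpr, Benjamini-Hochberg over all genes, threshold 0.05), with genotype and, in the lines of both sexes, sex as terms. The inflammation score was added as a term for its slopes, and differences between lines were tested as interactions over all 160 samples. Standard errors were taken as the log2 change over the root of F. CPM are TMM-scaled, and log2 CPM have a prior count of 2. Correlations used 100000 permutations. DESeq2 1.42.0, limma-voom (limma 3.58.1) and other settings were alternatives. On simulated counts of the *Dock2* line, 96% of 200 genes with a slope of 0.3 were recovered and 8.1% of calls were false. For a genotype difference of 0.9 the values were 94% and 4.6%. Both simulated fits, and the spread they drew on, had the inflammation score as a term. The genotype comparison did not, so the 94% is not its rate of recovery. The pairs of samples compared within groups all differed by more than counting error. The intervals that counts allow, such as 3 counts for a value of 0, cover counting error only.

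The members and all gene lists were chosen with earlier results of these data known. Genes named in the text are the 8 members, the 5 nearest to each, the 4 of each further list with the smallest mean rank of p over the lines, and any list gene called between genotypes. A few genes that this rule names are not reported here. Skin-marker, sex-marker, *Gpsm3*-level and single-library exclusions were chosen after the data were seen.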

Additional observations from a re-analysis of the deposited data

Results flagged for a closer look

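The slope of *Alox5* on the inflammation score was flagged because it differed between the 4 lines by the test of the difference itself (adjusted p = 0.0118, edgeR, interaction of line and score). *Alox5* changed by 0.16 ± 0.033 per unit in *Nckap1l*, 0.084 ± 0.027 in *Dock2*, 0.026 ± 0.034 in *Gpsm3* and 0.21 ± 0.027 in *Dok3* (log2, SE), so that the value in *Gpsm3* was the lowest. The adjusted p was 0.0063 with limma-voom, 0.00213 without the libraries high in skin markers and 0.0661 without the 2 libraries of each line farthest from its median score. The highest score reached 8.32 in *Dok3* and 5.95 in *Gpsm3*. Dose, strain, day of collection and line cannot be told apart.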

How the results depend on the processing

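No paired analysis was possible because every sample has a number of its own in the labels and the groups compared share none. Genotype calls stayed at 0 members in each line under every alternative run. With the interferon score the members called lower with inflammation were 0 in *Nckap1l*, 0 in *Dock2*, 1 in *Gpsm3* and 1 in *Dok3*, and with the acute-phase score 1 in *Nckap1l* and 1 in *Dok3*. Members called higher moved in *Nckap1l* to 1 (interferon score), 0 (acute-phase score), 1 (males only) and 0 (no skin-marker libraries), in *Dock2* to 1 (limma-voom), 1 (no libraries under 10000000 counts), 0 (interferon), 0 (acute-phase) and 0 (without the 2 libraries farthest from the median score), and in *Dok3* to 0 (acute-phase). Wild-type differences between lines were called for 2 members with limma-voom and 1 without skin-marker libraries, and the difference in slope between lines for 0 without the farthest libraries.

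The slope of *Pou2f3* turned below 0 in *Nckap1l* with the acute-phase score (-1.89), the epithelial covariate (-0.42) and no skin-marker libraries (-0.35), in *Gpsm3* with limma-voom (-0.456), interferon (-1.09), acute-phase (-1.81) and no skin-marker libraries (-0.415), and in *Dok3* with acute-phase (-0.664) and no skin-marker libraries (-0.201). Without the 2 farthest libraries it was called lower in *Dock2* (-0.50) and higher in *Dok3* (0.31). In *Dock2* the slopes of *Alox5* and *Avil* became -0.042 and -0.028 without the farthest libraries. In residuals the r of *Trpm5* turned positive with *Dclk1* (0.512) and *Alox5* (0.52), as did that of *Dclk1* with *Il17rb* (0.017) and of *Sh2d6* with *Alox5* (0.482). Without skin-marker libraries r became 0.783 for *Trpm5* and *Pou2f3*, 0.212 for *Pou2f3* and *Avil* and 0.00892 for *Sh2d6* and *Alox5*. The cause of these changes was not tested. A further 41 of 754 single values changed sign with neither value past its threshold. Depth limits *Il25*, and *Pou2f3* in libraries without skin markers.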
